A study of Mus musculus with 9 samples.

Results

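The comparison set 6 bone marrow samples carrying a NUP98-CDX fusion, 3 with NUP98-CDX1 and 3 with NUP98-CDX4, against 3 samples carrying EGFP, and asked which transcripts both fusions moved alike. Each fusion group was given equal weight in the mean of both fusions. A large difference in either fusion could still carry that mean. All 9 arrays of the series entered, and 10018 named genes were tested, each with a probe that 3 or more of the 9 arrays detected. A gene was counted as shared when the mean of both fusions differed from EGFP at an adjusted p under 0.05 and each fusion alone lay on the same side of EGFP. By that rule 508 of 10018 genes were shared, 268 higher and 240 lower than in EGFP.

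The donors were C57/B6 mice, 6 to 8 weeks old, whose marrow was taken after 5-FU, a drug that kills dividing cells and leaves primitive cells behind. All 9 samples were grown in IMDM with stem cell factor, IL-6 and 2% serum, and the controls expressed EGFP, a green fluorescent protein, in place of a fusion. The labels name no promoter, clone or separate culture for any sample, so the p-values measure only the spread between these 9 samples. Sex-linked RNA, given below, differed between replicates within each fusion group, so those replicates were not all repeats of 1 sample. For the EGFP samples the spread may be technical. Column names of the NUP98-CDX1 arrays hold the word Cdx1ires, against Cdx4 and eGFP on the others. What ires stands for is unstated, and it cannot be told apart from the fusion. A day number, whose meaning is unstated, stands in the column names: 28 on the NUP98-CDX1 arrays, 21 on the EGFP arrays and 17, 17 and 20 on the NUP98-CDX4 arrays, so the day of the control lies between those of the fusions and cannot be told apart from group in either single comparison.

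NUP98 is a nuclear pore protein whose phenylalanine-glycine repeats, when joined to a DNA-binding partner by chromosome translocation, give fusion proteins that cause acute leukaemia. CDX1 and CDX4 are caudal-type homeobox factors, which in the embryo switch on Hox genes along the body axis. In blood, Hoxa genes and their cofactor Meis1 are high in stem and progenitor cells and fall as cells mature, while granule, lysosome and surface receptor genes rise.

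Values are log2 intensities after background correction and quantile normalization, listed in replicate order, and differences are log2 differences with their standard error. Of 45281 probes an array detected 17257 to 19300 (38.1% to 42.6%), the mean intensity ran from 400.6 to 754.3, and the number of arrays limits the precision. Kit, the receptor for stem cell factor, and Mpo, an enzyme of immature granules, were detected on all 9 arrays. Of 13 B cell markers 6 were detected on no array, Pax5 among them, and 3 on all 9 (Cd79b, Vpreb1 and Cd74); of 11 T and NK cell markers these were 6, Cd3e among them, and 2 (Thy1 and Nkg7). The signals of undetected probes split the arrays into a brighter set (EGFP 1 and 2, NUP98-CDX1 3, NUP98-CDX4 1 and 3) and a dimmer set, each holding all 3 groups, and results are given with this set as a block where it matters. Xist, the RNA of the inactive X chromosome, was detected on NUP98-CDX1 1 and NUP98-CDX4 1 and 2 and on none of the EGFP arrays. On the same 3 arrays the brightest probe of the Y-linked gene Eif2s3y was not detected (4.47 to 4.62), against 9.88 to 10.45 on the others. Y-linked Kdm5d split likewise, and Uty (5.01 to 6.8) did not. Sex-linked RNA was thus mixed within each fusion group and of 1 kind in EGFP, and the labels give no sex. The fused genes check nothing about the labels: Nup98 differed by 0.27 ± 0.22 (adjusted p = 0.683), the measured Cdx1 probe by -0.18 (adjusted p = 0.906), and the labels do not say whether these probes lie in the constructs.

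Promoters of 3 genes that fell with both fusions are shown because they carry the letter patterns that were more frequent among the falls than among all genes. The windows run from 250 bases before to 50 after the annotated start, from RefSeq on build GRCm38.p6, written 5′ to 3′ on the gene's strand. Capitals mark each match, on either strand, to GAAA followed by any 2 bases and GAAA again, the core of the interferon response element, or to TTGCNNAA, a short form of the site bound by C/EBP factors of granulocytes. Overlapping matches run together in capitals. Isg15 and Oas1a respond to interferon, and Ngp encodes a protein of neutrophil granules.
Isg15, chr4:156200769-156201068, minus strand: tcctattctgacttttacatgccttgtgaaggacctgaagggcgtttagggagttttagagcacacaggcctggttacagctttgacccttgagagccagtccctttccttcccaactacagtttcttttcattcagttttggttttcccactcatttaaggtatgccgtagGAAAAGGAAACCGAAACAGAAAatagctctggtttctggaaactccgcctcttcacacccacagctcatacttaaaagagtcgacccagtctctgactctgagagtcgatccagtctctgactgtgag
Oas1a, chr5:120907476-120907775, minus strand: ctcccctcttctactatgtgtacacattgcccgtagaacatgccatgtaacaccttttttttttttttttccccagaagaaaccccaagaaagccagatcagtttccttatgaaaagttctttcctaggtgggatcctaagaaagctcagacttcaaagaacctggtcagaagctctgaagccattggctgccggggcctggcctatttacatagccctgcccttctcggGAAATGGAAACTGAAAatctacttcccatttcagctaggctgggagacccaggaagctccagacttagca
Ngp, chr9:110419558-110419857, plus strand: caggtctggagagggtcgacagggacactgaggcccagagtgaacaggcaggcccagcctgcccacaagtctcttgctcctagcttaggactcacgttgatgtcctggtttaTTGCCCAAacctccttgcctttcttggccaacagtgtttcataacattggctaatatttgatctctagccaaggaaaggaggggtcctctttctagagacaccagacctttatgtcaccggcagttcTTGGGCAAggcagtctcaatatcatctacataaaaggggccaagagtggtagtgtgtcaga

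Among the rises were 5 of 8 Hoxa genes, Meis1, Pbx3, Eya1, Mef2c and Bcl2, and genes of other roles such as Vldlr, Dlk1, Hpgd and H2-Ob. Among the falls were 16 of 23 late neutrophil genes, 6 of 14 mast cell genes, 11 of 26 monocyte and macrophage genes and 17 of 34 interferon response genes. The gene lists held 106 of the 508 shared genes. Of all genes tested 5.07% passed, 2.68% higher and 2.4% lower. At least 2-fold differences were found for 295 of the 508, 129 higher and 166 lower. Another 92 probes without a single gene symbol passed and are only counted.

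All 508 genes lay on the same side of EGFP in both fusions, a direction the rule itself required, and 0 genes that passed had to be left out for it. Both comparisons use the same 3 EGFP arrays, so a shared direction is not independent in the 2 fusions. Tested alone against EGFP, NUP98-CDX1 called 1.23% of all genes and NUP98-CDX4 6.1%. Of the 508, 109 passed in each fusion (1.09% of all genes), 343 passed only with NUP98-CDX4, 12 only with NUP98-CDX1, and 44 passed only when the fusions were pooled. Over the 268 rises the median difference was 0.85 with NUP98-CDX1 and 1.08 with NUP98-CDX4, and over the 240 falls it was -0.9 and -1.64. In 396 of the 508 (78%) the smaller of the 2 differences was at least 0.5 of the larger, and in 15 it was under 0.25. The 6 fusion arrays all lay above or all below the 3 EGFP arrays for 463 of the 508, against 10.8% of all genes. These were 255 rises, against 6.5% of all genes, and 208 falls, against 4.33%. The 508 were selected on these same arrays, so this separation follows from the selection and is given as a description.

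**Figure D1:**
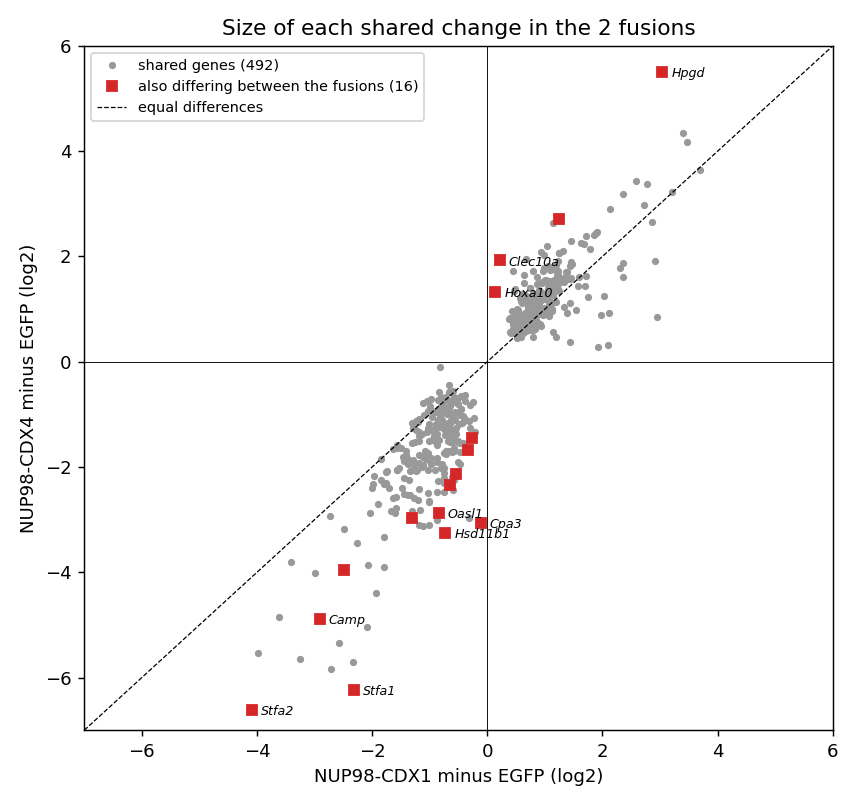
Log2 difference from EGFP with NUP98-CDX1 (horizontal axis) and with NUP98-CDX4 (vertical axis) for each of the 508 shared genes, with the 16 that also differed between the fusions as red squares and the line of equal differences dashed. Both axes share the EGFP arrays; 218 of the 240 falls are further from EGFP with NUP98-CDX4, with a median of -0.9 on the horizontal and -1.64 on the vertical axis.

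The count depended on single EGFP arrays. Without EGFP 1, 2 or 3 it was 227, 183 or 336, and without the 3 fusion arrays that detected Xist 223, of which 75 were higher and 148 lower. Within the brighter set alone 690 genes met the rule and within the dimmer set 71, and with array set as a block 1633. The dimmer set holds 1 EGFP array and the brighter set 1 NUP98-CDX1 array, so a low count within a set does not show absence of a change. All 508 kept their pooled direction within each set and their call in the block, though they had been selected on these same arrays.

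**Figure D2:**
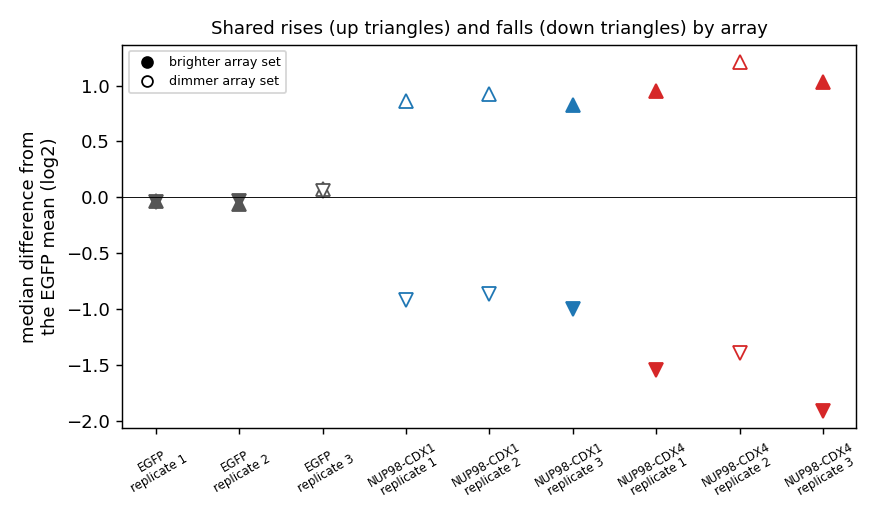
Median over the 268 rises (triangles up) and the 240 falls (triangles down) of each array's difference from the EGFP mean, in log2, for the 9 arrays, with filled symbols for the brighter and open symbols for the dimmer array set. The 6 fusion arrays read 0.83 to 1.21 for the rises and -1.91 to -0.87 for the falls, in both array sets, while the EGFP arrays lie near 0 by construction.

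The Hoxa cluster holds homeobox genes that sustain blood progenitors, and of its 8 measured genes 5 rose, 3 did not pass and none fell. Hoxa2, Hoxa3 and Hoxa10 entered the test through fusion arrays alone, so they could hardly have been called as falls. The list median was 1.08 (0.82 with undetected genes at their bound), against 0.02 over all 10018 genes. Hoxa5 read 7.48, 6.96 and 7.73 in EGFP, 9.82, 9.95 and 9.46 with NUP98-CDX1 and 10.45, 10.76 and 10.54 with NUP98-CDX4. Every fusion array was above every EGFP array and the NUP98-CDX4 arrays were the highest, a pooled difference of 2.77 ± 0.19 (6.83-fold, adjusted p = 0.000126). Hoxa9, which keeps progenitors immature, read 6.6, 7.24 and 8.27 in EGFP, 9.39, 9.53 and 9.58 with NUP98-CDX1 and 10.22, 10.24 and 10.33 with NUP98-CDX4. The EGFP arrays spread more widely than either fusion group, without overlap, and the difference was 2.51 ± 0.30 (5.71-fold, adjusted p = 0.00223). Hoxa7 rose 4.14-fold, from 8.92 to 9.05 in EGFP to 10.53 to 11.65 on the fusion arrays (adjusted p = 0.000504). Hoxa2, which no EGFP array detected, was at least 2.37-fold higher (adjusted p = 0.00251).

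Hoxa10 met the rule through NUP98-CDX4 alone. It read 4.87, 4.71 and 4.62 in EGFP, 4.76, 5.02 and 4.84 with NUP98-CDX1 and 5.93, 6.18 and 6.09 with NUP98-CDX4. The NUP98-CDX1 arrays overlapped the EGFP arrays, and neither group was detected on any array (difference 0.14, adjusted p = 0.758), while NUP98-CDX4 was at least 1.63-fold above EGFP (adjusted p = 0.00123). Hoxa3 was likewise detected with NUP98-CDX4 alone and did not pass when pooled (adjusted p = 0.0558). Hoxa4 and Hoxa13 read 5.31 to 6.33 and 5.7 to 6.11 in EGFP, overlapped both fusions and did not pass (adjusted p = 0.61 and 0.863). Of the Hoxb genes 0 of 4 measured passed in the limma fit, and 0 were at an unadjusted p under 0.05, with Hoxb4 at 0.07 ± 0.34 (adjusted p = 0.97).

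Hox proteins bind DNA together with TALE homeodomain cofactors, of which 2 of 8 rose and none fell. Meis1, the partner of Hoxa9, read 9.78, 9.78 and 9.91 in EGFP, 10.64, 10.5 and 11.25 with NUP98-CDX1 and 11.59, 11.67 and 11.55 with NUP98-CDX4. The 3 groups did not overlap, and the pooled difference was 1.38 ± 0.17 (2.60-fold, adjusted p = 0.00251), although NUP98-CDX1 alone did not pass (adjusted p = 0.0571). Pbx3 had the higher mean with NUP98-CDX1, reading 5.66, 5.48 and 5.99 in EGFP, 7.36, 7.78 and 7.25 with NUP98-CDX1 and 6.51, 7.29 and 7.03 with NUP98-CDX4. Both fusions lay above EGFP and overlapped each other, and the difference between them had a 95% interval from -1.06 to 0.02 (pooled difference 1.49 ± 0.21, 2.81-fold, adjusted p = 0.00449). Meis3, Pbx2 and Pbx4 did not pass, with Pbx4 nearest at 0.73 ± 0.18 (adjusted p = 0.0541).

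**Figure D3:**
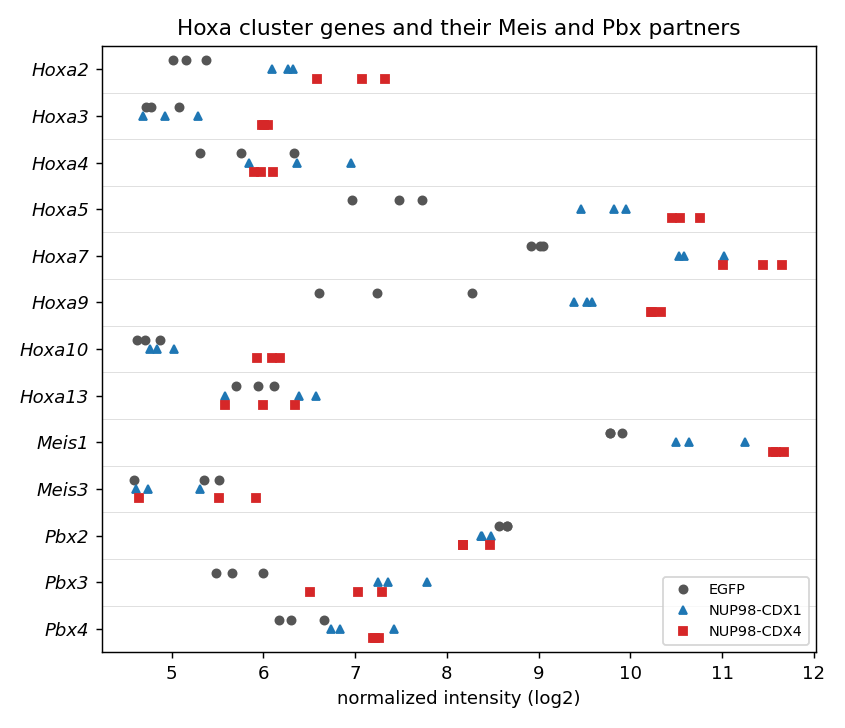
Log2 intensity of the 8 measured Hoxa genes and of 5 Meis and Pbx genes on each of the 9 arrays, with EGFP as circles, NUP98-CDX1 as triangles and NUP98-CDX4 as squares. Hoxa2, Hoxa5, Hoxa7, Hoxa9, Meis1 and Pbx3 have all 6 fusion arrays above the 3 EGFP arrays, whereas for Hoxa10 only NUP98-CDX4 is apart.

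Among 15 measured genes tied to leukaemia with HOX or NUP98 fusions, 7 rose, none fell and 8 did not pass (list median 0.42). Eya1, a transcriptional coactivator with phosphatase activity, read 4.7, 4.66 and 5.38 in EGFP, 8.13, 8.56 and 8.44 with NUP98-CDX1 and 9.03, 9.35 and 8.87 with NUP98-CDX4. It was detected on 1 of 3 EGFP arrays and on all 6 fusion arrays, and its difference was 3.82 ± 0.20 (14.1-fold, adjusted p = 1.5e-05). The survival gene Bcl2 rose 2.14-fold and the transcription factor Mef2c 2.71-fold, both in each fusion alone. Bahcc1, Sox4, the chromatin regulator Kmt2a and the haematopoietic regulator Lmo2 rose by 0.93, 0.92, 0.53 and 0.59, while another probe of Kmt2a stood at 0 (adjusted p = 1) and another of Sox4 at 0.36 (adjusted p = 0.731).

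Of 21 stem and progenitor genes 4 rose and none fell, at a median of 0.2. The 4 were Egfl7 (1.42), Mllt3 (1.21), the Tie2 ligand Angpt1 (0.73) and the transcription factor Bcl11a (0.95), none passing in NUP98-CDX1 alone. Of 2 other probes each for Egfl7 and Mllt3, 1 passed (1.36 and 1.03) and 1 did not (0.05 and -0.2). Another Angpt1 probe did not pass (0.51, adjusted p = 0.723), while another of Bcl11a did (0.99, adjusted p = 0.0141). Bcl11a (adjusted p = 0.0497) and the centrosome gene Nin (0.0499) were the last genes inside the threshold. The cell cycle inhibitor Cdkn1c (1.06) and Syne3 (0.58) were the first outside it, both at an adjusted p of 0.0508. Of 23 polycomb and trithorax genes, 4 rose, Cbx7, Phc1, Cbx2 and Kmt2a, by 0.53 to 0.84.

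Ranked by the smaller of the 2 fusion differences, the 12 largest rises also held Eya1, Hoxa5 and Hoxa9, described above, and 9 genes outside those lists. Vldlr, a lipoprotein receptor, read 5.49, 5.39 and 6.25 in EGFP, 9.49, 9.09 and 9.65 with NUP98-CDX1 and 8.49, 9.76 and 9.84 with NUP98-CDX4. The fusions overlapped each other and lay clear of EGFP, where 2 of 3 arrays detected it, by 3.68 ± 0.32 (12.8-fold, adjusted p = 0.000639). The difference between the fusions was -0.05, with a 95% interval from -0.89 to 0.8. Dlk1, a delta-like transmembrane protein found on immature cells, read 4.76, 6.02 and 5.27 in EGFP, 8.47, 9.24 and 8.55 with NUP98-CDX1 and 9.46, 10.58 and 9.05 with NUP98-CDX4. Again no fusion array overlapped EGFP, and the difference was 3.88 ± 0.37 (14.7-fold, adjusted p = 0.00112). On EGFP replicate 1 Dlk1 read below the lowest detected signal of that array (5.39), so the fold rests on a baseline near background. Another Dlk1 probe gave a smaller difference, 2.65 (adjusted p = 0.00488).

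Hpgd, the enzyme that inactivates prostaglandins, was not detected in EGFP (4.97, 5.25 and 4.76) and read 7.99, 7.86 and 8.26 with NUP98-CDX1 and 10.94, 10.23 and 10.34 with NUP98-CDX4. The 3 groups stood in steps, at least 6.38-fold above EGFP with NUP98-CDX1 and at least 35.3-fold with NUP98-CDX4 (pooled adjusted p = 1.02e-05). Adgrl4, an adhesion receptor of endothelium, was nearly equal in both fusions, 3.20 and 3.23 above EGFP (9.29-fold, adjusted p = 0.00224), although its EGFP arrays ranged from 8.43 to 10.17. Igfbp7, secreted and able to bind growth factors, rose 6.74-fold, and Il12a, a subunit of interleukin-12, 8.06-fold. Whrn, known as a scaffold protein of hair cells, rose 4.55-fold. Ppm1e, a phosphatase not detected in EGFP, rose at least 5.95-fold by its brightest probe (adjusted p = 1.02e-05), whereas another probe moved by 0.71 (adjusted p = 0.163).

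H2-Ob, which with H2-Oa forms DO, a brake on the loading of peptides onto MHC class II, read 5.33, 5.23 and 5.78 in EGFP, 8, 8.51 and 8.02 with NUP98-CDX1 and 7.9, 8.58 and 8.81 with NUP98-CDX4. All 6 fusion arrays were above EGFP, where 1 of 3 arrays detected it, by 2.86 ± 0.23 (7.24-fold, adjusted p = 0.000336). The difference between the fusions was 0.25, with a 95% interval from -0.34 to 0.85. H2-Oa rose 1.99-fold (adjusted p = 0.0091) and H2-DMa, a chain of the peptide loader itself, 3.17-fold (adjusted p = 0.0237). The antigen-presenting chain H2-Aa did not pass and lay lower, at -0.98 ± 0.28 (adjusted p = 0.09). Of 9 class II genes measured 3 rose and none fell.

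**Figure D4:**
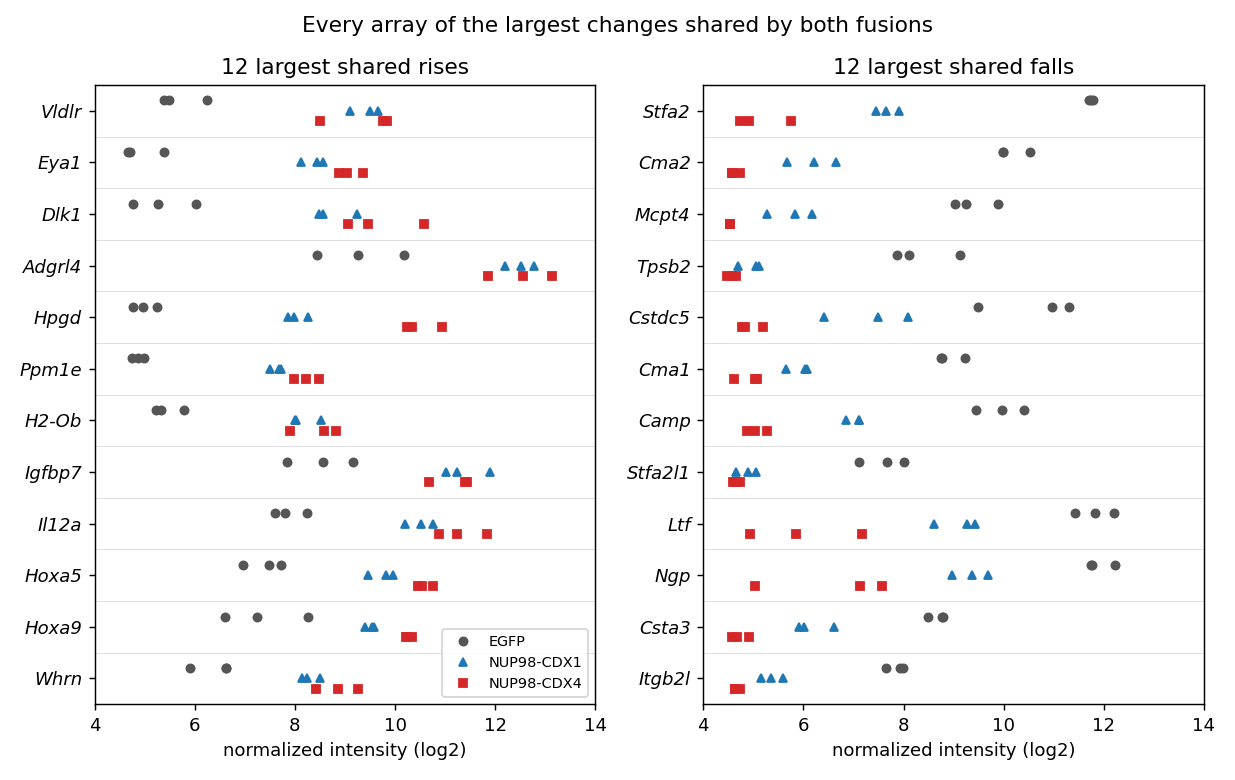
Log2 intensity on each of the 9 arrays for the 12 largest rises (left) and 12 largest falls (right), ranked by the smaller of the 2 fusion differences, with EGFP as circles, NUP98-CDX1 as triangles and NUP98-CDX4 as squares. In every one of these 24 genes, which were chosen for it, the fusion arrays are clear of EGFP, and among the 12 falls the mean with NUP98-CDX4 is below that with NUP98-CDX1.

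Most genes of late neutrophils lay lower with the fusions. None of the 23 measured rose, 16 fell and 7 did not pass, at a median of -1.8, or -1.19 with NUP98-CDX1 and -2.56 with NUP98-CDX4. Of the 23, 2 lay above EGFP without passing. Stfa2l1 was detected on the EGFP arrays alone, so it could hardly have been called as a rise, and Mmp9 on 3 of 9 arrays. The mean level of the list was 10.35 to 10.61 on the EGFP arrays, 8.96 to 9.08 with NUP98-CDX1 and 7.18 to 8.1 with NUP98-CDX4. As these are bulk samples, fewer cells of a type and less RNA per cell cannot be told apart, here and in the lists that follow. Ltf, the iron-binding protein lactoferrin, read 11.43, 12.21 and 11.83 in EGFP, 9.27, 9.43 and 8.61 with NUP98-CDX1 and 5.86, 7.17 and 4.94 with NUP98-CDX4. The groups did not overlap, 2 of 3 NUP98-CDX4 arrays detected it, and the difference was -4.28 ± 0.43 (19.4-fold, adjusted p = 0.00116). Camp, the precursor of the antimicrobial cathelicidin, fell 14.9-fold (adjusted p = 1.5e-05), and 1 of 3 NUP98-CDX4 arrays detected it. Ngp, whose promoter with its 2 C/EBP matches is shown above, fell 15.5-fold (adjusted p = 0.0025), with 2 of 3 NUP98-CDX4 arrays detecting it. Itgb2l, an integrin chain, was detected on 2 of 3 NUP98-CDX1 arrays and on 0 with NUP98-CDX4, and fell at least 5.61-fold. The gelatinase gene Mmp9 fell at least 2.43-fold, Cd177 4.21-fold and Lcn2, which sequesters iron carriers of bacteria, 2.91-fold, while another Cd177 probe did not pass (-0.97, adjusted p = 0.0661).

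The pair S100a8 and S100a9, whose products form calprotectin, both passed when pooled. S100a8 read 14.79, 14.86 and 15.14 in EGFP, 14.78, 14.66 and 14.42 with NUP98-CDX1 and 11.9, 13.1 and 10.92 with NUP98-CDX4. NUP98-CDX1 lay just under EGFP (difference -0.31, adjusted p = 0.812), and the pooled call (-1.63, adjusted p = 0.0453) came from NUP98-CDX4. S100a9 differed by -2.08 with NUP98-CDX1, which did not pass alone (adjusted p = 0.113), and by -5.03 with NUP98-CDX4 (pooled adjusted p = 0.00296).

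Stefins, cytosolic inhibitors of cysteine proteases, formed the longest run of adjacent shared genes. In order along chromosome 16 the 8 tested neighbours Stfa2l1, Cstdc4, Csta3, Csta2, Stfa1, Cstdc6, Cstdc5 and Stfa2 all fell. Their sequences are so alike that 1 probe may detect several. Stfa2 read 11.74, 11.71 and 11.78 in EGFP, 7.9, 7.44 and 7.65 with NUP98-CDX1 and 4.73, 5.75 and 4.92 with NUP98-CDX4, where 1 of 3 arrays detected it. It stepped down from group to group, by -5.35 ± 0.22 on average (40.7-fold, adjusted p = 1.02e-05). Stfa1 fell 19.3-fold and Cstdc4 16.2-fold, and Cstdc6, detected in neither fusion, at least 1.93-fold.

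Of 10003 genes that could be placed on the genome, other runs of at least 3 adjacent tested genes were the chemokine genes Ccl2, Ccl7, Ccl12 and Ccl8 on chromosome 11, the last 3 falling 3.77-fold to 4.33-fold, and Ms4a6c, Ms4a6b and Ms4a6d on chromosome 19, falling 2.75-fold to 3.76-fold. Rising runs were Hoxa5, Hoxa7, Hoxa9 and Hoxa10 and the GTPase genes Gimap9, Gimap6 and Gimap1, both on chromosome 6. Gimap1 rose 3.16-fold, with another probe at 0.5 (adjusted p = 0.336), and Gimap6, not detected in EGFP, at least 2.57-fold. In all, 102 of the 508 (20.1%) had a shared neighbour that moved the same way. The share to be met without any grouping along the genome was not computed, so this is a count only.

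Of 14 mast cell genes measured, 6 fell, none rose and 8 did not pass (median -0.85). Cma2, a chymase of mast cell granules, read 9.98, 9.99 and 10.53 in EGFP, 6.66, 5.67 and 6.22 with NUP98-CDX1 and 4.57, 4.58 and 4.74 with NUP98-CDX4. All fusion arrays were far below EGFP and no NUP98-CDX4 array detected it, a fall of at least 21.1-fold (adjusted p = 1.02e-05). Its relatives Mcpt4 and Cma1 fell at least 14.2-fold and 9.71-fold, and the tryptase Tpsb2, detected in neither fusion, at least 8.27-fold. Tpsb2 entered through the EGFP arrays alone and could hardly have been called as a rise. Sequences of the chymases are alike, so these probes may not be independent. Kit, also on this list, read 0.21 above EGFP and did not pass (adjusted p = 0.703).

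Carboxypeptidase A3, Cpa3, lies in the same granules and had another pattern. It read 11.46, 11.93 and 11.97 in EGFP, 11.71, 11.69 and 11.63 with NUP98-CDX1 and 8.47, 9.2 and 8.51 with NUP98-CDX4. NUP98-CDX1 lay inside the EGFP range, so its shared direction rests on a difference of -0.11 (adjusted p = 0.866). The fusions differed from each other by -2.95 ± 0.22 (adjusted p = 0.00339). Fcer1a, a chain of the IgE receptor, also differed between the fusions, at -0.65 with NUP98-CDX1 and -2.35 with NUP98-CDX4.

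Monocyte and macrophage genes fell in 11 of 26 cases, with none rising and a median of -1. Adgre1, an adhesion receptor used to mark macrophages, read 10.16, 10.26 and 10 in EGFP, 8.82, 8.87 and 8.83 with NUP98-CDX1 and 8.52, 8.1 and 7.61 with NUP98-CDX4. The 3 groups did not overlap (-1.68 ± 0.19, 3.21-fold, adjusted p = 0.00175). The receptor for the macrophage growth factor, Csf1r, fell 2-fold, Ctss, a lysosomal protease, 2.53-fold and Ms4a7 3.94-fold. Klf4, a transcription factor of monocytes detected in neither fusion, fell at least 1.57-fold (adjusted p = 0.00591) and could hardly have been called as a rise. Among 16 myeloid transcription factors 4 fell, Klf4, Cebpe, Cebpb and Irf5. Cebpe, which drives late granule genes, read 10.99, 10.84 and 10.73 in EGFP, 10.77, 10.02 and 9.94 with NUP98-CDX1 and 8.94, 8.75 and 8.32 with NUP98-CDX4. NUP98-CDX1 replicate 1 overlapped EGFP and the others were lower (-1.40 ± 0.21, adjusted p = 0.00675).

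Eosinophil genes were few, and 3 of 5 fell, at a median of -0.62, or -0.14 with undetected genes at their bound. Prg2, the major basic protein, fell 5.91-fold (adjusted p = 0.0212), Prg3 3.82-fold and Epx, detected in neither fusion, at least 1.08-fold. Epx entered the test through the 3 EGFP arrays alone, so it could hardly have been called as a rise. Of 12 primary granule genes, made at an earlier stage, 1 rose, 2 fell and 9 did not pass. Their median was -0.39, or -0.02 with NUP98-CDX1 and -0.8 with NUP98-CDX4. Nkg7, a granule membrane protein, rose 2.45-fold (adjusted p = 0.00133), whereas Fcnb fell 3.55-fold and Gstm1 2.14-fold, the latter with another probe at -0.28 (adjusted p = 0.714).

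Type I interferon response genes fell in 17 of 34 cases, and the differences of all 34 were negative, from -2.6 to -0.22, with a median of -1.17. With NUP98-CDX1 the median was -0.57 and with NUP98-CDX4 -1.7. Isg15, a ubiquitin-like protein induced by interferon, read 12.09, 11.93 and 11.96 in EGFP, 10.74, 11.11 and 10.62 with NUP98-CDX1 and 9.16, 9.93 and 8.45 with NUP98-CDX4. The groups stepped down without overlap (-1.99 ± 0.28, 3.98-fold, adjusted p = 0.00456), although NUP98-CDX1 alone did not pass (adjusted p = 0.151). The DNA sensor family member Ifi204 fell 4.44-fold and the antiviral GTPase gene Mx1 4.38-fold, both in each fusion alone. Oas1a, an enzyme that senses double-stranded RNA, fell 2.31-fold, and Irf7, a transcription factor of the response, 3.83-fold with NUP98-CDX1 replicate 2 inside the EGFP range. The Oas and Ifi200 genes have close relatives, so their probes may read more than 1 gene. Over all 9 arrays 29 of the 34 were at an unadjusted p under 0.05 in the limma fit. The dimmer array set holds 1 EGFP array, so only differences are given for it, -1.54 for Isg15, -2.05 for Mx1 and -1.7 for Irf7.

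Promoter letters differed between falls and rises. The windows were available for 8193 of the genes tested, 220 of the rises and 188 of the falls. The interferon pattern occurred in 3.25% of all windows, 3.18% of the rises and 15.4% of the falls, and in 8 of 13 interferon genes that fell. In the Isg15 window above 3 such matches overlap and in that of Oas1a 2. TTGCNNAA occurred in 8.26% of all windows, 7.27% of the rises and 18.6% of the falls, and in 5 of 14 late neutrophil genes that fell, the Ngp window holding 2. TTTATGG, a core bound by caudal and posterior Hox proteins, occurred in 1.66% of all windows, 0 of 220 rises and 2 of 188 falls. TGATTTAT, a joint Hoxa9-Meis1 pattern, occurred in 0.305% of all windows and 0.455% of the rises. These shares describe windows of 300 bases only and were not tested. Shares among interferon and late neutrophil genes that did not pass were not computed, so the 8 of 13 and 5 of 14 cannot be set against them.

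Of 18 NF-kB and inflammatory genes 2 rose and 1 fell. The chemokine gene Ccl3 read 9.5, 9.25 and 9.97 in EGFP, 12.06, 12 and 11.73 with NUP98-CDX1 and 11.7, 11.7 and 10.98 with NUP98-CDX4, clear of EGFP in all 6 arrays (4.34-fold, adjusted p = 0.00132). Tnfaip3, a brake on NF-kB, rose 2.14-fold, and Ccl2, a monocyte attractant not detected with NUP98-CDX4, fell at least 2.82-fold (adjusted p = 0.000336). Among 22 glycolysis and hypoxia genes 4 rose and none fell (median 0.37), Ankrd37 3.67-fold, the vessel growth factor gene Vegfa 2.85-fold, Aldoc 2.70-fold and Egln3, an oxygen sensor, 2.44-fold, another probe of which moved by 0.55 (adjusted p = 0.302).

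Of 27 genes of G1/S and replication and 19 of G2/M, 0 passed in the limma fit, against 5.07% of all genes, and 1 and 0 of them were at an unadjusted p under 0.05. Their medians were 0.09 and -0.06. Mcm3 read 10.56 to 10.78 in EGFP and 10.68 to 11.05 on the fusion arrays, and Birc5 11.97 to 12.21 and 11.76 to 12.13. Of 17 cell cycle inhibitors and p53 targets 3 rose, Pmaip1 2.21-fold, Cdkn2c 2.10-fold and Sesn1 2.01-fold. Of 21 ribosome and Myc genes and 16 of cholesterol synthesis 0 passed, with 1 and 3 at an unadjusted p under 0.05 and medians of 0.03 and 0.22. Of 9 erythroid genes 2 rose, the transcriptional repressor Gfi1b 2.44-fold and Car2 2.26-fold, while 7 did not pass and the list median was 0.03.

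Of the 44 genes that passed only when the fusions were pooled, 34 were higher and 10 lower. The circadian repressor Ciart read 5.7, 5.4 and 6.33 in EGFP, 7.43, 7.34 and 6.69 with NUP98-CDX1 and 6.6, 7.26 and 6.7 with NUP98-CDX4. Each fusion array was above each EGFP array (1.19 ± 0.26, 2.28-fold, adjusted p = 0.0315), at an adjusted p of 0.0781 and 0.0874 in the fusions alone. Other such rises were the kinase gene Fyn (1.05) and the Wnt receptor gene Fzd7 (0.96). Falls included the haem oxygenase Hmox1 (-0.84) and Gclm, a subunit of the enzyme that starts glutathione synthesis (-0.74), both known targets of the oxidative stress factor Nrf2. Gclm read 12, 11.8 and 11.54 in EGFP and 10.74 to 11.23 on the fusion arrays.

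**Figure D5:**
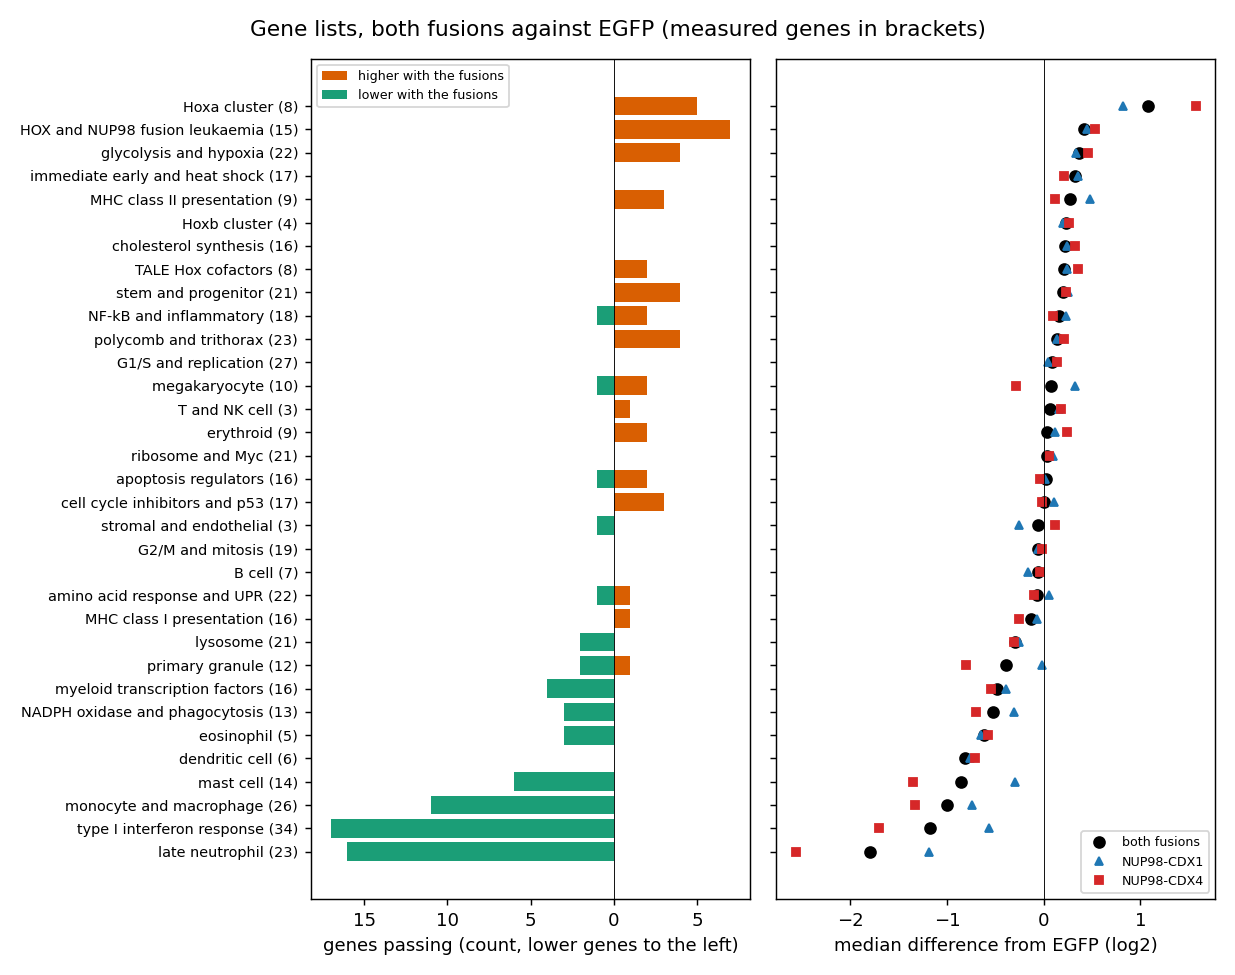
Left, number of genes that passed as higher (right of 0) or lower (left of 0) in each gene list, with the number measured in brackets. Right, median log2 difference from EGFP of each list for both fusions (circles), NUP98-CDX1 (triangles) and NUP98-CDX4 (squares). Late neutrophil genes have the lowest pooled median, -1.8, and Hoxa genes the highest, 1.08.

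The size of the shared changes was larger with NUP98-CDX4 for 429 of the 508. The difference between the fusions passed for 16 of them (0.18% of all genes passed, 18 in number), each further from EGFP with NUP98-CDX4. Besides Hpgd, Hoxa10 and Cpa3, they included Clec10a, a lectin receptor of macrophages and dendritic cells, which differed from EGFP by 0.22 with NUP98-CDX1 and 1.93 with NUP98-CDX4, and Anxa1, an inhibitor of inflammation, by -0.26 and -1.45. Myadml2 rose by 1.25 and 2.71, and Oasl1, of the interferon response, differed by -0.84 and -2.87. Because the NUP98-CDX1 samples bear day 28 and the NUP98-CDX4 samples days 17 and 20, fusion and day cannot be told apart here. The ires in the NUP98-CDX1 column names cannot be told apart from the fusion either. With array set as a block 168 genes differed between the fusions, 38 higher and 130 lower with NUP98-CDX4, while the brighter set alone gave 8 and the dimmer 0 (807 in the latter at an unadjusted p under 0.05, limma). The count ranged from 0 (without NUP98-CDX1 replicate 1, limma, 461 at an unadjusted p under 0.05) to 30 (without NUP98-CDX4 replicate 2) when single arrays were left out.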

How the data were processed

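Labelled RNA of 9 samples was read on Illumina bead arrays with 1 colour and 45281 probes. The intensity of each probe was deposited by the authors without normalization, exported from GenomeStudio per the submitters' processing notes in a version not given in the sources used here. Beside it the authors deposited a detection p-value per probe. The authors' processed intensities, of unstated normalization and deposited separately, served as an alternative only.

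Background correction and quantile normalization used limma's neqc (version 3.58.1, offset 16, with the negative controls estimated through the detection p-values) in R 4.3.3 (tables read by data.table, 1.17.8), giving log2 values from the deposited intensities. A probe was kept if 3 or more of 9 arrays had a detection p under 0.05 (19472 probes, while 21684 were detected on no array), and the probe with the highest mean stood for a gene. Symbols came from the platform annotation, where 34885 probes have 1 symbol, 18 several and 10378 none, and 34807 matched RefSeq by Entrez number. One limma model with a mean per group gave moderated tests, adjusted by Benjamini and Hochberg over 13160 features (10018 genes and 3142 probes without a single symbol). A group in which no array detected a probe gives a bound, computed after setting its values no lower than the dimmest detected probe of the same array. Among the falls 13 were detected in neither fusion. These passed the filter through the EGFP arrays alone and could hardly have been called as rises. Among the rises 30 were detected on no EGFP array, Hpgd, Ppm1e, Gimap6 and Hoxa2 among them. They passed the filter through fusion arrays alone and could hardly have been called as falls. For 202 shared genes other probes were tested (291 pairs): 54 genes had one that missed the threshold and either changed sign or moved by less than 0.5 of the difference, and 0 were called oppositely.

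The members and the 35 gene lists were chosen with earlier results of these data known. Named by rule were the 12 largest rises and 12 largest falls by the smaller fusion difference (of 242 and 202 eligible), 5 rises and 5 falls that passed only when pooled, 5 each way that differed between fusions, up to 4 members per list, the fused, Hoxa, Meis and Pbx genes, and the 2 genes on each side of the threshold. Further members, chosen after their values were seen, are named to complete counts and for their promoters. Of 508 shared genes 408 had a promoter window, the first listed where there were several. The pipeline was tested on simulated data of the pooled comparison with 200 of 13160 features changed: a change of 1 was recovered for 58% with 8 false calls, and of 2 for 95.5% with 13.

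Whether equal replicate numbers mark pairs could not be decided. Deviations of same-numbered arrays correlated from -0.79 to 0.66, and of other pairs from -0.79 to 0.78. The sign followed the array set, positive for pairs within a set and negative between sets. Within a set, same-numbered pairs stood at 0.4, 0.62 and 0.66, inside the range of the other pairs (0.38 to 0.78). Alternatives covered background, scaling, filter, probe choice, blocks, array sets, array weights, pooling, the variance model and each array left out. Correlations over undetected probes were 0.73 to 0.77 within the brighter set, 0.43 to 0.46 within the dimmer and 0.32 to 0.38 between them.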

Additional observations from a re-analysis of the deposited data

Results flagged for a closer look

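For the genes here both fusion means lay on the same side of EGFP. The means differed between NUP98-CDX4 and NUP98-CDX1 at an adjusted p under 0.05 in the limma fit. With NUP98-CDX1 the difference from EGFP was small for Hoxa10 (0.14), Cpa3 (-0.11), Clec10a (0.22) and Anxa1 (-0.26). For others, such as Stfa2 (-4.08), it was large. Among the rises the log2 difference of NUP98-CDX4 minus NUP98-CDX1 was 2.47 for the prostaglandin enzyme Hpgd, 1.71 for the lectin Clec10a, 1.46 for Myadml2 and 1.2 for Hoxa10. Among the falls it was -3.93 for Stfa1, -2.53 for Stfa2 and -1.46 for Csta3, all stefin genes, and -1.97 for Camp. The mast cell genes Cpa3 and Fcer1a stood at -2.95 and -1.7, and the interferon response genes Oasl1 and Mx1 at -2.03 and -1.67. Hsd11b1, which activates glucocorticoids, stood at -2.52, Rgcc, a cell cycle regulator, at -1.6, Mogat2, an enzyme of triglyceride synthesis, at -1.34 and Anxa1 at -1.19. Day number, the ires in the NUP98-CDX1 column names and fusion cannot be told apart in these differences.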

How the results depend on the processing

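The number of shared genes stayed between 404 and 613 under changes of background correction, scaling, filter, probe choice and variance model. Array set as a block gave 1633, array weights 2544, and it was 71 within the dimmer set and 223 without the 3 fusion arrays that detected Xist; before the demand for 1 direction in both fusions these counts were 1638, 2588, 71 and 224. With single arrays left out both counts ranged from 183 to 494, the lowest being 183 without EGFP 2, 227 without EGFP 1 and 336 without EGFP 3. With the replicate number as a block 261 passed, for the pooled and the shared count, and 1 gene differed between the fusions. Genes differing between the fusions (18) numbered 8 without a detection filter, 6 with detection on all 9 arrays, 168 with the array set block, 8 and 0 within the brighter and dimmer sets (807 in the dimmer at an unadjusted p under 0.05 in limma), 9 without the Xist arrays, 2994 with array weights and 0 to 30 with single arrays left out. They were 0, 1 and 11 without NUP98-CDX1 1, 2 and 3, 2, 30 and 7 without NUP98-CDX4 1, 2 and 3, and 6 without EGFP 2. Kmt2a turned to 0 (adjusted p = 1) with its most variable probe, and the median of the G2/M genes to 0.01 with array weights. Over the 161 named genes, 3357 alternative values kept direction and call, 442 lost and 112 gained the call and 1 turned. Signal near background limits genes detected in 1 group only to bounds. The cause of these changes was not tested.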
